A study of Mus musculus with 18 samples.

Results

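The comparison described here is that of macrophages from injured spinal cords injected with recombinant IL-13 (rIL-13) with macrophages from cords injected with PBS. Its members were chosen by the labels of cell type and treatment, and are 6 of the 18 libraries of the series, 1 from each of 3 mice given rIL-13 and 3 given PBS. All mice were C57BL/6J females of 8 to 10 weeks. The cord was contused in all of them, PBS or 100 ng of rIL-13 was injected into it 48 h after the contusion, and cells were collected 24 h later. No uninjured cord was sequenced, so that PBS macrophages are macrophages of an injured cord and not resting cells. Macrophages were sorted with antibodies to CD45, CD11b and F4/80, and the study defined them as CD45high and microglia as CD45low. The cells were taken from the injury site, and each library held the sorted macrophages of 1 mouse. The libraries of rIL-4 macrophages (3 mice) and of the microglia of the same PBS and rIL-13 mice were used for comparison. The rIL-4 macrophages also entered the fit that tested rIL-13 against PBS, where they share in the estimate of the spread. Microglia and macrophages of the rIL-4 mice were compared with each other to see which of the genes called differ between these cell types.

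IL-13 is a cytokine of type 2 immunity, made mainly by T helper 2 cells and innate lymphoid cells. In macrophages it binds IL-13Rα1, which pairs with IL-4Rα, and the JAK kinases on this receptor phosphorylate STAT6. STAT6 then turns on the genes of alternative activation, which are known for arginine breakdown, chitinase-like proteins, lectins and scavenger receptors, and represses part of the inflammatory program driven by Toll-like receptors and interferons. IL-4 uses the same IL-4Rα chain.

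The libraries held between 35961305 and 45849829 counts, and those of PBS and rIL-13 macrophages between 35961305 and 39783556. Values are normalized counts, for which each library was scaled by the DESeq2 size factor it has among the macrophage libraries, given mouse by mouse in the order mouse 1, 2 and 3 for PBS and mouse 5, 6 and 7 for rIL-13. They are not divided by gene length, so that levels are compared within a gene and not between genes. Differences were tested with edgeR's quasi-likelihood test, and a gene was called when its p-value, adjusted over all genes tested by the Benjamini-Hochberg method, was under 0.05. "Adjusted p" always means this value.

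Genes that mark the sorted cells were present in every library. Their levels are given in CPM, the counts of a gene for each 1000000 counts of its library. In PBS macrophages, Ptprc, which encodes CD45, was between 299 and 338 CPM, Adgre1, which encodes F4/80, was between 572 and 649 CPM and Lyz2 was between 16089 and 19339 CPM. In rIL-13 macrophages Ptprc was between 173 and 221 CPM, Adgre1 between 435 and 645 CPM and Lyz2 between 6181 and 16571 CPM, so that the groups did not overlap for Ptprc. In normalized counts they did not overlap for 24.5% of all genes tested. The summed level of the 10 macrophage identity genes was between 23283 and 27320.0 with PBS and between 12482 and 22555 with rIL-13 in CPM, and 9 of them had a log2 fold change below 0. Of the 10 macrophage identity genes 0 were called by edgeR and 1 by DESeq2, with 0 higher and 1 lower at an unadjusted p under 0.05, against 2433 of all 13606 genes tested. Resident microglia markers were also present. The summed level of 18 of them in CPM was between 3319 and 5116 with PBS and between 1545 and 2577 with rIL-13, against 10651 to 17546 CPM in PBS microglia, and none of the 18 was at 0. Cd3e of T cells was at 0 CPM in every rIL-13 library and in the median PBS library, Epx of eosinophils and Ms4a2 of mast cells and basophils were at 0 in all 6 libraries, and Cldn5 of endothelium was between 1.51 and 3.25 CPM with PBS and between 1.28 and 1.94 CPM with rIL-13. Siglecf, on the same marker list as Epx, was between 10.6 and 13.4 CPM with PBS and between 4.91 and 6.03 with rIL-13. It was called lower (log2 fold change -0.93, adjusted p = 0.0312), but not with any 1 mouse left out.

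rIL-13 mouse 6 stood apart from the other libraries by its values, without a test of this. Its macrophages held a sum of 3523 CPM of 18 neutrophil markers, against 617 and 700.0 in rIL-13 mice 5 and 7 and 1193 to 1816 with PBS. Its sum of 14 monocyte markers was 3723 CPM, against 1529 and 1997, and its sum of macrophage identity genes was the lowest of the 6 libraries. Without this mouse, the median log2 fold change of the neutrophil markers went from 0.36 to -0.99, with 0 and 2 called lower, that of the monocyte markers from 0.23 to -0.95 and that of the chemokine receptors from 0.21 to -0.45. A smaller number of cells of a type and less RNA per cell cannot be told apart in bulk libraries.

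**Figure D1:**
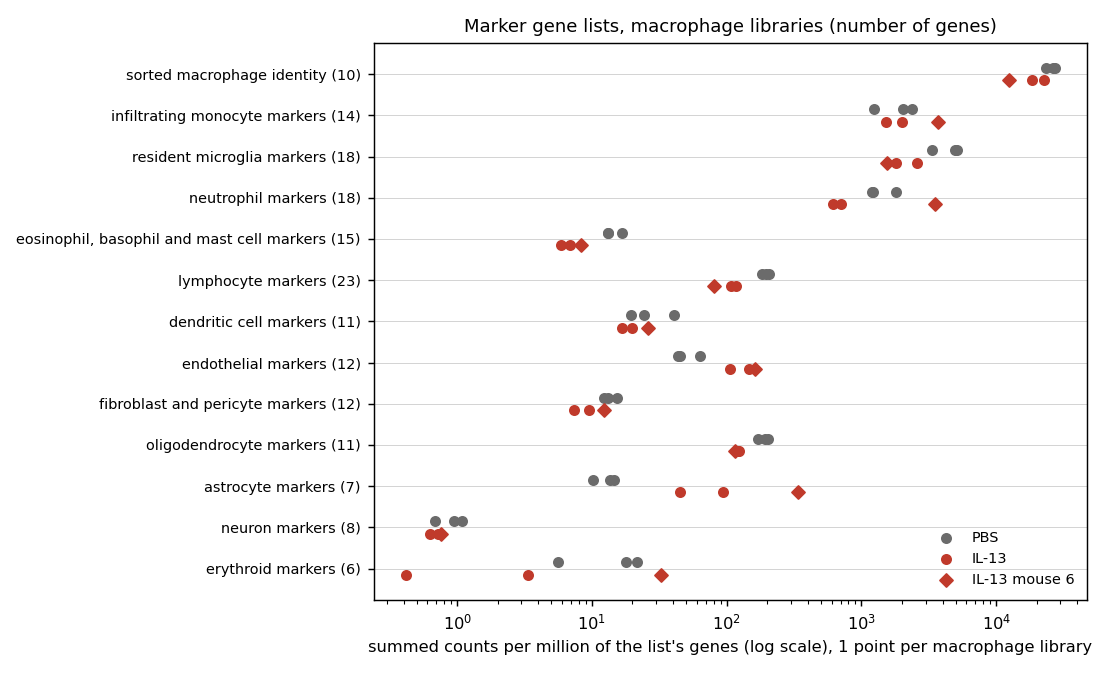
Summed CPM (log scale) of 13 lists of marker genes in the 6 libraries, 1 point per mouse, with rIL-13 mouse 6 as a diamond. Neutrophil markers reached 3523 in rIL-13 mouse 6, and microglia markers were lower in all 3 rIL-13 libraries than in the 3 PBS libraries. The astrocyte and endothelial sums rose with Gja1 and Pecam1.

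Of 13606 genes tested, 344 were called higher and 226 lower in rIL-13 macrophages, which is 2.53% and 1.66% of the genes. The counts of called genes on the lists that follow are to be read against these shares. The median log2 fold change was 1.36 for the genes called higher and -1.26 for those called lower, and 44 genes rose and 7 fell by more than 4 on the log2 scale. The PBS and rIL-13 groups did not overlap for 24.5% of all genes tested, and for all 570 genes called. The number called depended on single mice and on the libraries in the fit. It was 265 without PBS mouse 1, 267 without PBS mouse 2, 199 without PBS mouse 3, 363 without rIL-13 mouse 5, 529 without rIL-13 mouse 6 and 264 without rIL-13 mouse 7. In total 109 of the genes called higher and 66 of those called lower were called in each of these 6 fits. DESeq2's Wald test called all of the 570 genes, among 1112, of which 559 were higher and 553 lower.

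A fit of all 18 libraries, with the microglia, called 257 genes. Of the genes named here as called, other than Siglecf, 53 were not called in it. Of these, 16 had been called with each mouse left out in turn, with adjusted p, over all 18 libraries, of 0.848 for Lif, 0.816 for Ptger4, 0.575 for Ptger2, 0.509 for Tlr8, 0.365 for Gm8818, 0.293 for Cxcl10, 0.223 for Cybb, 0.132 for Cd24a, 0.131 for Oat, 0.129 for Il31ra, 0.102 for Il1a, 0.0889 for Clcn5, 0.0735 for Timp1, 0.0714 for Mmp14, 0.0529 for Jak2 and 0.0514 for Tlr2. The other 37 were Apoc2, Bhlhe40, Ccl17, Cish, Clec12a, Creld2, Cxcr3, Ddx4, Egr2, Elmo1, Etfa, F10, F13a1, F7, Gbp3, Herpud1, Hspa5, Ifi30, Ifit2, Irf4, Itgb3, Ldha, Mef2c, Mmp27, Msr1, Pdia6, Pfkfb3, Pla2g7, Ptgir, Slc11a1, Slc2a5, Slc40a1, Tfec, Tlr13, Tlr3, Tnfaip3 and Zranb3 (adjusted p 0.0553 to 0.967).

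**Figure D2:**
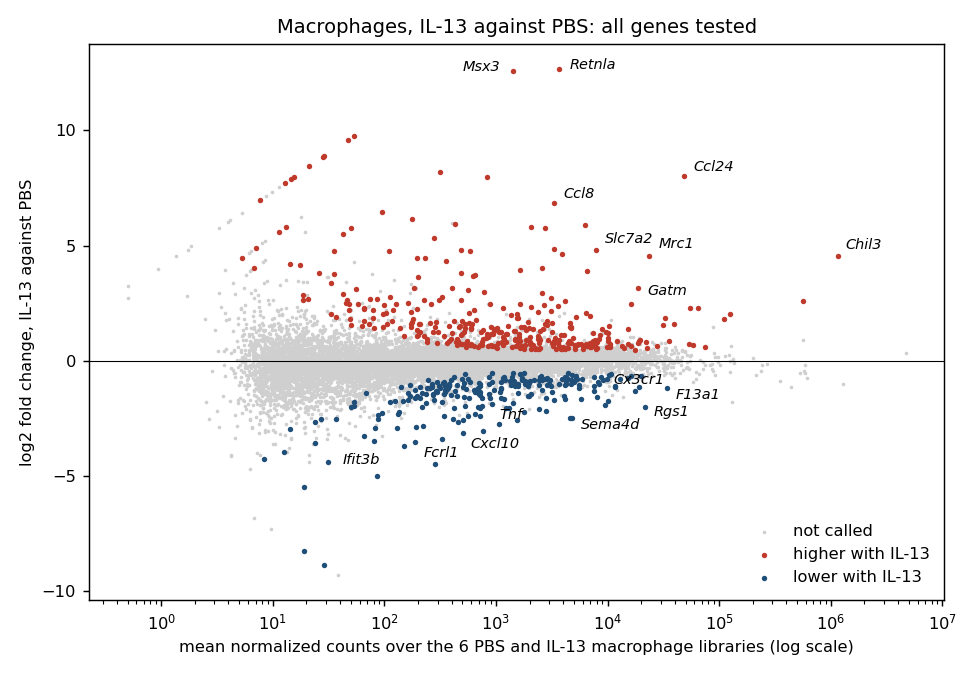
Each point is 1 of 13606 genes, with the mean normalized count of the 6 libraries on a log axis and the log2 fold change of rIL-13 against PBS on the other. Genes called higher (344) are red, those called lower (226) are blue. Chil3 was both abundant and higher with rIL-13, and Retnla and Msx3 had the largest fold changes among the genes with at least 100 normalized counts.

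Effectors of alternative activation held the largest share of genes called higher. On this list, 24 of 37 tested genes were called higher and 1 lower, with a median log2 fold change of 2.46, against a median of 0.00 over all genes tested. Slc7a2 (ENSMUSG00000031596.15, chromosome 8 from 40862396 to 40922308 of GRCm38), a transporter that brings arginine into the cell, had 512, 509 and 629.9 normalized counts in the PBS mice and 14577, 17743 and 12998 in the rIL-13 mice. All 3 rIL-13 libraries were above the 3 PBS libraries (log2 fold change 4.78, SE 0.23, adjusted p = 6.48e-06).

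Of 19 genes of arginine and polyamine metabolism, 4 were called, all higher. Beside Slc7a2, these included Oat, which converts ornithine towards proline (log2 fold change 0.78, SE 0.12, adjusted p = 0.00658). Odc1, the ornithine decarboxylase that starts polyamine synthesis, had 696, 1022 and 891 normalized counts in the PBS mice and 748, 1186 and 771 in the rIL-13 mice and was not called, with overlapping groups. Gatm, which takes arginine into creatine synthesis and is on no list, had 3994, 3559.7 and 3757 normalized counts in the PBS mice and 35272, 32491 and 33299 in the rIL-13 mice. Its values were close together within each group (log2 fold change 3.17, SE 0.16, adjusted p = 6.48e-06). Nos2, the inducible nitric oxide synthase that competes for arginine, had 195, 461 and 131 normalized counts in the PBS mice and 302, 3091 and 921 in the rIL-13 mice. It was not called (log2 fold change 2.46, SE 0.95, adjusted p = 0.201), and its log2 fold change without rIL-13 mouse 6 was 1.24 (adjusted p = 0.518).

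Several secreted proteins of this state rose. Chil3 (Ym1, ENSMUSG00000040809.10, chromosome 3 from 106147554 to 106167564), a chitinase-like protein, had 52311, 133799 and 103722 normalized counts in the PBS mice and 2010106, 1986070.1 and 2700102 in the rIL-13 mice. It took 0.251 ± 0.101% of all counts with PBS and 5.44 ± 1.19% with rIL-13 (SD, n = 3). The log2 fold change was 4.54 ± 0.37 (SE), with an adjusted p of 0.00014. Retnla (Fizz1, ENSMUSG00000061100.3, chromosome 16 from 48842551 to 48844461), a resistin-like protein, had 0, 2.15 and 0.997 normalized counts in the PBS mice and 8951, 8657 and 4323 in the rIL-13 mice. The PBS libraries held 3 reads of it in all, so that the ratio of 7028 had a 95% counting interval from 2404 to 34081. Chil4, a close relative of Chil3 that can share its reads, had 0, 2.15 and 3.99 normalized counts in the PBS mice and 527, 497 and 874 in the rIL-13 mice. The eosinophil-associated ribonucleases Ear2 and Rnase2a, which are also members of a family of near-identical genes, had log2 fold changes of 3.93 (adjusted p = 0.000279) and 7.98 (adjusted p = 8.03e-06). Epx, the peroxidase of eosinophils, had no count in any of the 6 libraries, while Siglecf of the same marker list was present and called lower with rIL-13.

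Several lectins and receptors of the cell surface were also called higher. Mrc1 (ENSMUSG00000026712.3, chromosome 2 from 14229392 to 14332057), which encodes the mannose receptor CD206, had 1758, 2181 and 1836 normalized counts in the PBS mice and 36470.0, 53206 and 45904 in the rIL-13 mice (log2 fold change 4.56, SE 0.25, adjusted p = 8.41e-06). The galactose-type lectins Mgl2 and Clec10a, which lie side by side in the genome, had log2 fold changes of 5.80 (adjusted p = 3.68e-05) and 2.46 (adjusted p = 0.00213). Clec7a, which encodes the beta-glucan receptor Dectin-1, had 5975, 4209 and 4705 normalized counts in the PBS mice and 29516, 25975 and 26339 in the rIL-13 mice (log2 fold change 2.46, SE 0.17, adjusted p = 5.19e-05). Cd163, the receptor that takes up haemoglobin bound to haptoglobin, had 177, 295 and 150.5 normalized counts in the PBS mice and 5988, 21738 and 9647 in the rIL-13 mice. It was higher in every rIL-13 library, and rIL-13 mouse 6 held the highest value (log2 fold change 5.91, SE 0.66, adjusted p = 0.00142). Without that mouse its log2 fold change was 5.25 (adjusted p = 0.00084).

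Of 25 scavenger receptors and C-type lectins tested, 7 were called higher and 3 lower, with a median of -0.17. Without rIL-13 mouse 6, 7 were called higher and 5 lower, with a median of -0.03. Olr1, a receptor for oxidized LDL, rose by 1.35 (adjusted p = 0.00726) and Clec4a3 by 1.48 (adjusted p = 0.0102) on the log2 scale. Clec4n (Dectin-2), a receptor for fungal mannans, went the other way, with 6991, 9149 and 7492 normalized counts in the PBS mice and 1033, 2016 and 1209 in the rIL-13 mice (log2 fold change -2.47, SE 0.28, adjusted p = 0.00142). Msr1, the class A scavenger receptor, was at -0.76 (adjusted p = 0.0374) on the log2 scale, and Clec12a at -1.08 (adjusted p = 0.031). Msr1 was not called without mouse 1, 2, 3, 5 or 7 (adjusted p up to 0.141) and Clec12a without mouse 2, 3, 5 or 7 (adjusted p up to 0.138). Cd36 (0.47, adjusted p = 0.275) and Stab1 (-0.85, adjusted p = 0.0532) were not called.

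**Figure D3:**
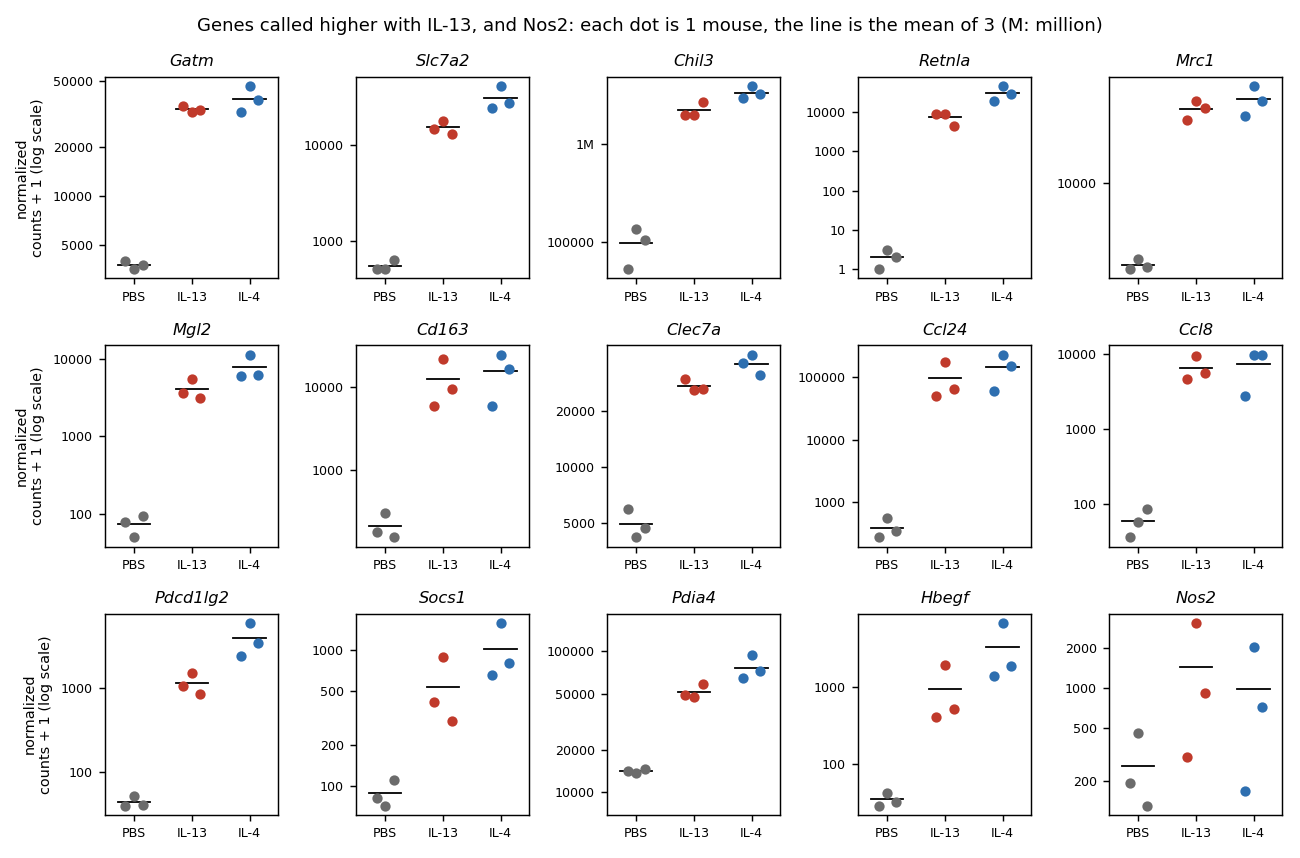
Normalized counts plus 1 (log scale, a scale of its own in each panel) of 14 genes called higher with rIL-13 and of Nos2, 1 dot per mouse and a line at the mean of the 3 mice, in PBS, rIL-13 and rIL-4 macrophages. The rIL-13 and PBS dots do not overlap for the 14 genes called, and they overlap for Nos2, whose highest value was that of rIL-13 mouse 6.

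Several CC chemokines that attract eosinophils and monocytes rose as well. On this list, 5 of 9 tested genes were called higher and 0 lower, with a median log2 fold change of 2.27. Without rIL-13 mouse 6, 4 were called and the median was 1.68. Ccl24 (ENSMUSG00000004814.10, chromosome 5 from 135569937 to 135573049), eotaxin-2, had 266, 544 and 333 normalized counts in the PBS mice and 50984, 175478 and 65239 in the rIL-13 mice (log2 fold change 8.00, SE 0.72, adjusted p = 0.000279). Ccl8, a ligand of CCR8 in mice, had 34.1, 56 and 83.7 normalized counts in the PBS mice and 4739, 9398 and 5695 in the rIL-13 mice (log2 fold change 6.84, SE 0.59, adjusted p = 0.000216). rIL-13 mouse 6 held the highest value of both genes. Ccl6 and Ccl9 had log2 fold changes of 2.31 (adjusted p = 0.00142) and 2.27 (adjusted p = 0.0133). Ccl17, a ligand of CCR4, was low in every library, with 5.02, 5.38 and 2.99 normalized counts in the PBS mice and 24.9, 54 and 20 in the rIL-13 mice. Ccl9 was not called without mouse 1 or 3 (adjusted p up to 0.0786) and Ccl17 with any 1 mouse left out (adjusted p up to 0.155). Ccl22 (0.57, adjusted p = 0.607) and Ccl7 (0.29, adjusted p = 0.863) were not called, and Ccl7 was highest in rIL-13 mouse 6, which held 39169 normalized counts against 9566 and 11355 in the other rIL-13 mice. Without mouse 6 the log2 fold change of Ccl7 was -0.63 (adjusted p = 0.604).

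The receptor and its signalling chain were examined gene by gene. Il13ra1 had 4206, 5168 and 4731 normalized counts in the PBS mice and 3338, 4517 and 3478 in the rIL-13 mice (log2 fold change -0.31, SE 0.17, adjusted p = 0.392). Il4ra had 18561, 23007 and 17706 normalized counts in the PBS mice and 14858, 58866 and 24013 in the rIL-13 mice, with 1 high library, rIL-13 mouse 6. Its log2 fold change was 0.72 (adjusted p = 0.534), and without that mouse -0.01 (adjusted p = 0.994). Stat6 (0.09, adjusted p = 0.806) and Jak1 (-0.02, adjusted p = 0.964) lay close to 0. The 4 genes called on this list of 15 were all higher. They were Jak2, with 751, 650.4 and 651 normalized counts in the PBS mice and 1612, 3207 and 2514 in the rIL-13 mice (log2 fold change 1.84, SE 0.25, adjusted p = 0.00369), and 3 genes of the SOCS family, which are induced by cytokines and inhibit JAK kinases or their receptors. Socs1 had 80.3, 70 and 109.6 normalized counts in the PBS mice and 414, 886 and 297 in the rIL-13 mice, Socs2 was at 3.05 (adjusted p = 0.00601) on the log2 scale and Cish at 3.18 (adjusted p = 0.00791). Socs1 was not called without mouse 1 or 2 (adjusted p up to 0.059) and Cish without mouse 3 (adjusted p of 0.0503). Socs3, which is known as a target of STAT3, was not called (-0.19, adjusted p = 0.862).

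Of 19 transcription factors linked to alternative activation, 5 were called higher and 1 lower, against 2.53% and 1.66% over all genes tested. Irf4 had 53.2, 44.1 and 59.8 normalized counts in the PBS mice and 139, 98.7 and 193 in the rIL-13 mice, Egr2 was at 1.23 (adjusted p = 0.0279) on the log2 scale, and Batf3 at 2.48 (adjusted p = 0.0047). Tfec and Bhlhe40 were the other two called higher, at 2.32 (adjusted p = 0.0224) and 0.66 (adjusted p = 0.0305). Irf4 was not called without mouse 1, 2, 3, 5 or 7 (adjusted p up to 0.117), Egr2 without mouse 2, 3 or 6 (adjusted p up to 0.129), Tfec without mouse 1, 2 or 3 (adjusted p up to 0.101) and Bhlhe40 with any 1 mouse left out (adjusted p up to 0.17). Bhlhe41 fell, with 3025, 2129 and 2721 normalized counts in the PBS mice and 759, 224 and 355 in the rIL-13 mice. Bhlhe41 was not called without mouse 1, 2, 3, 6 or 7 (adjusted p up to 0.103). Pparg, a nuclear receptor of this program, was higher in all 3 rIL-13 mice, at 395, 436 and 473 normalized counts in the PBS mice and 1402, 505 and 914 in the rIL-13 mice, and was not called (log2 fold change 1.12, SE 0.30, adjusted p = 0.0701). Without rIL-13 mouse 6, its log2 fold change was 1.43 (adjusted p = 0.0046). Klf4 (0.72, adjusted p = 0.122) and Myc (0.40, adjusted p = 0.518) were not called.

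The promoters of genes that moved were searched for the letters that STAT proteins are known to bind. STAT6 prefers the inverted repeat TTC and GAA with 4 bases between, and other STATs the same with 3 bases between. RefSeq promoters of GRCm38.p6 (250 bases before to 50 after the start) were at hand for 271 of the genes called higher, 172 of those called lower and 9752 of all genes tested, matched by symbol. TTCNNNNGAA, which reads the same on both strands, was found, in at least 1 promoter of the gene, for 8.86% of the genes called higher, 8.72% of those called lower and 6.77% of all. TTCNNNGAA, which also reads the same on both strands, was found for 9.23%, 8.14% and 8.35%. The shares of genes called higher and lower lay close together for the first repeat. The 4 promoters printed are those of strongly rising genes that hold it, shown as the 250 bases before the start, 5′ to 3′ on the strand of the gene, with the repeat in capitals:
Retnla, chr16:48842359-48842608, plus strand: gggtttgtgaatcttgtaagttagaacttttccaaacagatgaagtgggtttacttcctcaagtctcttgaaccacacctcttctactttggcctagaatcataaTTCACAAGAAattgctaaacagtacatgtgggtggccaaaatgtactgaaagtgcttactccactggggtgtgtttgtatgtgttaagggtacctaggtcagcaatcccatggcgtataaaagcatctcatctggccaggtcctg
Tmem26, chr10:68723496-68723745, plus strand: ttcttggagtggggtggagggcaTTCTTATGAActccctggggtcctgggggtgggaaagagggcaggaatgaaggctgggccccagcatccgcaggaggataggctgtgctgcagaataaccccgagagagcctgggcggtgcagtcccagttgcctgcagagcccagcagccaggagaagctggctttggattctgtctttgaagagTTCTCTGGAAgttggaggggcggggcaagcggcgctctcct
Pdcd1lg2, chr19:29410669-29410918, plus strand: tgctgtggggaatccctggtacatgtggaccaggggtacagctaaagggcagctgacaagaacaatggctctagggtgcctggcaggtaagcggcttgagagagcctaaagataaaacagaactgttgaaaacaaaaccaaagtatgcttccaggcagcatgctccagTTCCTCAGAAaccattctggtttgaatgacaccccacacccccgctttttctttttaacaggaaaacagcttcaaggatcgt
Clec7a, chr6:129472786-129473035, minus strand: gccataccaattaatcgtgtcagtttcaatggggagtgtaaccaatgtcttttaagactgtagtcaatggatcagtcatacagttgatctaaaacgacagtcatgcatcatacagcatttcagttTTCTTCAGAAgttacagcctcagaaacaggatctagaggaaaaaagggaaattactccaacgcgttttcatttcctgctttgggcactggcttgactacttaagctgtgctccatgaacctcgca
In these the repeat began 145 bases before the RefSeq start of Retnla, 227 and 41 bases before that of Tmem26, 82 before that of Pdcd1lg2 and 125 before that of Clec7a. RefSeq starts can differ from those of the GENCODE genes. That of Retnla lies downstream of the gene start given above. Tmem26, which encodes a membrane protein, had 72.3, 108 and 124 normalized counts in the PBS mice and 5713, 5069.6 and 5418 in the rIL-13 mice (log2 fold change 5.74, SE 0.27, adjusted p = 6.48e-06). Pdcd1lg2, which encodes PD-L2, a ligand of the inhibitory receptor PD-1 on T cells, had 38.1, 50.6 and 38.9 normalized counts in the PBS mice and 1052, 1521 and 833 in the rIL-13 mice (log2 fold change 4.74, SE 0.38, adjusted p = 0.000137). Binding of STAT6 was not measured in these samples.

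Other genes rose too. Msx3 (ENSMUSG00000025469.10, chromosome 7 from 140046157 to 140049089), a homeobox gene, had 0, 1.08 and 0 normalized counts in the PBS mice and 1599, 5011 and 1913 in the rIL-13 mice. The PBS libraries held 1 read in all, so that the ratio of 8439 had a 95% counting interval from 1514 to 333382. Tuba8, a tubulin, had 12, 16.2 and 13 normalized counts in the PBS mice and 507, 1557 and 469 in the rIL-13 mice (log2 fold change 5.94, SE 0.84, adjusted p = 0.00419). Cdh1, which encodes the adhesion protein E-cadherin, had 382, 257 and 287 normalized counts in the PBS mice and 4226, 12042 and 6469.8 in the rIL-13 mice (log2 fold change 4.62, SE 0.50, adjusted p = 0.00115). Atp6v0d2, a subunit of the proton pump of osteoclasts and macrophages, had 1097, 515 and 875 normalized counts in the PBS mice and 20049, 4794 and 11957 in the rIL-13 mice and was the only 1 of 38 genes of lysosomal hydrolases and the proton pump to be called by edgeR. Without rIL-13 mouse 6, 3 of the 38 were called higher, and DESeq2 called 3 higher and 1 lower. Over all genes tested, edgeR called 2.53% higher and 1.66% lower. Il4i1, a secreted amino acid oxidase, had 12, 15.1 and 13 normalized counts in the PBS mice and 359, 752 and 507 in the rIL-13 mice. Its exons overlap those of Nup62, which can share its reads. Ddx4, a helicase known from germ cells, had 5.02, 5.38 and 3.99 normalized counts in the PBS mice and 152, 807 and 91 in the rIL-13 mice. Ddx4 was not called without mouse 1, 2, 3 or 6 (adjusted p up to 0.146).

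Pecam1 and Gja1 also rose, although they are best known from other cells. Pecam1 (ENSMUSG00000020717.19, chromosome 11 from 106654217 to 106750628), which encodes CD31, a marker of endothelium that leukocytes carry too, had 354, 266 and 285 normalized counts in the PBS mice and 3459.9, 6355 and 4799.6 in the rIL-13 mice (log2 fold change 4.02, SE 0.33, adjusted p = 0.000141). Of the 12 endothelial markers tested, Pecam1 was the only one called higher, Kdr was called lower (-2.31, adjusted p = 0.0299), and Cdh5 was between 0.406 and 0.549 CPM with PBS and between 0.276 and 1.11 CPM with rIL-13. Kdr was not called without mouse 1, 2, 3, 5 or 7 (adjusted p up to 0.0887). Gja1, which encodes connexin 43 and is on the list of astrocyte markers, had 193, 269 and 202 normalized counts in the PBS mice and 1703, 13857 and 3526 in the rIL-13 mice. Its value was far higher in rIL-13 mouse 6 than in mice 5 and 7 (log2 fold change 4.84, SE 0.94, adjusted p = 0.019), and its log2 fold change without mouse 6 was 3.58 (adjusted p = 0.0221). Gja1 was not called without mouse 1, 2 or 3 (adjusted p up to 0.0971). Gfap was between 1.98 and 5.45 CPM with PBS and between 2.11 and 2.67 CPM with rIL-13, and Aqp4 was between 0 and 0.0549 CPM with PBS and between 0.0556 and 0.327 CPM with rIL-13. The Aqp4 values lie near the limit of counting, so that 0.0549 and 0.0556 CPM cannot be ranked. Of the 5 astrocyte markers tested, 3 were above 0 and Gja1 alone was called, with a median log2 fold change of 0.36, and 0.72 without mouse 6. The endothelial sum in CPM was between 43.8 and 63.6 with PBS and between 106 and 163 with rIL-13 and the astrocyte sum between 10.3 and 14.5 with PBS and between 45.2 and 338 with rIL-13.

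Growth factors and genes of the wound matrix were split. Of 18 growth and trophic factors tested, 3 rose and 1 fell with all mice, and 4 rose and 3 fell without rIL-13 mouse 6. Hbegf, a ligand of the EGF receptor, had 28.1, 42 and 31.9 normalized counts in the PBS mice and 403, 1892 and 518 in the rIL-13 mice (log2 fold change 4.79, SE 0.80, adjusted p = 0.00906). It was highest in rIL-13 mouse 6, without which its log2 fold change was 3.77 (adjusted p = 0.0101). Tgfb3, which acts in wound repair, had 42.2, 44.1 and 16.9 normalized counts in the PBS mice and 277, 1154 and 613 in the rIL-13 mice (log2 fold change 4.31, SE 0.65, adjusted p = 0.00572), and Pdgfc, a mitogen for fibroblasts, had 28.1, 37.7 and 45.8 normalized counts in the PBS mice and 346, 369 and 273 in the rIL-13 mice (log2 fold change 3.15, SE 0.26, adjusted p = 0.000141). Hbegf was not called without mouse 1 or 3 (adjusted p up to 0.0579). The gene that fell with all mice was Lif. Igf1 had 1381, 982 and 1166 normalized counts in the PBS mice and 6317, 955 and 4557 in the rIL-13 mice and was not called (log2 fold change 1.76, SE 0.58, adjusted p = 0.135). It was low in rIL-13 mouse 6, and without that mouse its log2 fold change was 2.22 (adjusted p = 0.00935). Tgfb1 (0.17, adjusted p = 0.879) and Vegfa (0.45, adjusted p = 0.772) were not called.

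Among 22 genes of the clot and the provisional matrix, 4 rose and 3 fell. Fn1, which encodes fibronectin, had 66242, 41883 and 37186 normalized counts in the PBS mice and 159509, 97492 and 256396 in the rIL-13 mice (log2 fold change 1.83, SE 0.35, adjusted p = 0.0194). Postn, which encodes periostin, had 124, 233 and 169 normalized counts in the PBS mice and 1326, 1861 and 936 in the rIL-13 mice (log2 fold change 2.98, SE 0.34, adjusted p = 0.00142), and the coagulation factors F7 and F10 had log2 fold changes of 1.21 (adjusted p = 0.0395) and 1.37 (adjusted p = 0.0167). F13a1, the factor that crosslinks fibrin and is often listed with alternative activation, fell, with 48324, 48351 and 45404 normalized counts in the PBS mice and 13728, 24582 and 23953 in the rIL-13 mice (log2 fold change -1.19, SE 0.25, adjusted p = 0.0299). Procr, the protein C receptor, and Sparc fell too, at -1.53 (adjusted p = 0.00883) and -1.53 (adjusted p = 0.0377). Fn1 was not called without mouse 2, 3 or 7 (adjusted p up to 0.0988), F7 without mouse 1, 2, 3, 5 or 7 (adjusted p up to 0.147), F10 without mouse 1, 3 or 7 (adjusted p up to 0.0871), F13a1 without mouse 1, 2, 3, 5 or 7 (adjusted p up to 0.0973) and Sparc without mouse 1, 3, 6 or 7 (adjusted p up to 0.136).

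Of 26 proteinases and their inhibitors tested, 1 was called higher and 4 lower, against 2.53% and 1.66% over all genes tested. Timp1, the inhibitor of matrix metalloproteinases, had 918, 1224 and 1369 normalized counts in the PBS mice and 4315, 9928 and 6955 in the rIL-13 mice (log2 fold change 2.60, SE 0.37, adjusted p = 0.00403). Those that fell were Mmp14, which activates other metalloproteinases (-1.54, adjusted p = 0.00906), Mmp27 (-2.05, adjusted p = 0.0144), Adamts1 (-2.84, adjusted p = 0.0149) and Plau, the urokinase that activates plasminogen. Plau had 1149, 1204 and 1003 normalized counts in the PBS mice and 256, 196 and 373 in the rIL-13 mice (log2 fold change -2.02, SE 0.25, adjusted p = 0.00201). Mmp27 was not called without mouse 3 or 7 (adjusted p up to 0.0611) and Adamts1 without mouse 5 or 7 (adjusted p up to 0.0651). Mmp9 (-0.16, adjusted p = 0.925) and Mmp12 (0.34, adjusted p = 0.635) were not called.

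Of the chaperones of the endoplasmic reticulum, Pdia4 rose the most. On a list of 23 genes of the unfolded protein and amino acid stress responses, 7 were called higher and 1 lower, with a median of 0.57. Pdia4 (ENSMUSG00000025823.9, chromosome 6 from 47796141 to 47813430), a disulfide isomerase, had 14139, 13749 and 14577 normalized counts in the PBS mice and 48837, 47687 and 58699 in the rIL-13 mice (log2 fold change 1.88, SE 0.17, adjusted p = 0.000254). The others called higher rose by less than 1 on the log2 scale. Hspa5, which encodes the chaperone BiP, had 61835, 59490.1 and 58479.6 normalized counts in the PBS mice and 91006, 86556 and 91402 in the rIL-13 mice (log2 fold change 0.59, SE 0.13, adjusted p = 0.0395). Sdf2l1 was at 0.89 (adjusted p = 0.00839), Creld2 at 0.76 (adjusted p = 0.00954), Dnajb9 at 0.76 (adjusted p = 0.0273), Herpud1 at 0.79 (adjusted p = 0.0451) and Pdia6 at 0.66 (adjusted p = 0.0256). Hspa5 was not called without mouse 1, 2, 3, 5 or 7 (adjusted p up to 0.197), Sdf2l1 without mouse 1 or 3 (adjusted p up to 0.0591), Creld2 without mouse 7 (adjusted p of 0.0515), Dnajb9 without mouse 1, 2, 3, 5 or 6 (adjusted p up to 0.136), Herpud1 with any 1 mouse left out (adjusted p up to 0.136) and Pdia6 without mouse 1, 2, 3, 5 or 7 (adjusted p up to 0.125). The gene that fell was Atf3, a factor of the amino acid stress response and an immediate early gene, and Ddit3 (-0.11, adjusted p = 0.819) and Xbp1 (0.54, adjusted p = 0.119) were not called.

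Inflammatory genes leaned to lower values with rIL-13. Of 20 inflammatory cytokines and chemokines tested, 4 were called, all lower, and 18 had a log2 fold change below 0, with a median of -1.10. Tnf (ENSMUSG00000024401.14, chromosome 17 from 35199381 to 35202007), the central inflammatory cytokine of macrophages, had 3970.3, 4793 and 2968 normalized counts in the PBS mice and 505, 1552 and 729.6 in the rIL-13 mice (log2 fold change -2.07, SE 0.37, adjusted p = 0.0122). Il1a, an alarmin of the IL-1 family, had 1120.0, 1218 and 744 normalized counts in the PBS mice and 423, 381 and 404 in the rIL-13 mice (log2 fold change -1.34, SE 0.23, adjusted p = 0.00937). Lif, a cytokine of the IL-6 family, had 261, 239 and 169 normalized counts in the PBS mice and 30.9, 43.6 and 70 in the rIL-13 mice (log2 fold change -2.20, SE 0.33, adjusted p = 0.00596), and Cxcl10, the interferon-induced ligand of CXCR3, had 920.3, 1049 and 754 normalized counts in the PBS mice and 38, 172 and 95 in the rIL-13 mice (log2 fold change -3.15, SE 0.47, adjusted p = 0.00551). Tnf was not called without mouse 2 or 7 (adjusted p up to 0.0608). All 4 were lower in every rIL-13 mouse than in any PBS mouse.

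The inflammatory list changed with rIL-13 mouse 6. Without this mouse 11 of the 20 genes were called lower and the median was -1.85. Over the fits with 1 mouse left out, 3 to 11 were called lower, so that this fit is the extreme one. Mouse 6 was picked out by its values, and the calls without it are no separate evidence. Il1b had 11606, 17897 and 11098 normalized counts in the PBS mice and 1883, 10886 and 3407 in the rIL-13 mice, so that mice 5 and 7 lay far below every PBS mouse and mouse 6 just below the lowest of them (log2 fold change -1.33, SE 0.57, adjusted p = 0.258). Without mouse 6 its log2 fold change was -2.34 (adjusted p = 0.0175). Ccl3 was at -1.49 (adjusted p = 0.0851) with all mice and at -2.33 (adjusted p = 0.000483) without mouse 6, Ccl4 at -1.57 (adjusted p = 0.245) and -2.85 (adjusted p = 0.0141), and Cxcl2 at -0.85 (adjusted p = 0.584) and -2.27 (adjusted p = 0.031). Ccl2, which attracts CCR2+ monocytes, had 16533, 26953 and 22998 normalized counts in the PBS mice and 7679.7, 40272 and 10772 in the rIL-13 mice and was called neither with mouse 6 (adjusted p = 0.931) nor without it (adjusted p = 0.308). The neutrophil and monocyte markers that were high in mouse 6 moved with these values, and their part in them was not tested. The study defined granulocytes as F4/80- and macrophages as F4/80+, so that the gate is meant to remove neutrophils.

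Interferon-stimulated genes lay below 0 as a group. All 35 tested had a negative log2 fold change, with a median of -0.90, and 4 were called by edgeR. With 1 mouse left out edgeR called 1 to 6 lower, and DESeq2 called 10 lower with all mice. An unadjusted p under 0.05 by edgeR was found for 17. Ifit3, which binds viral RNA together with other IFIT proteins, had 423, 1107 and 2540.5 normalized counts in the PBS mice and 62.9, 190.2 and 239 in the rIL-13 mice. The PBS mice were spread widely, with PBS mouse 3 the highest (log2 fold change -3.04, SE 0.61, adjusted p = 0.0234). Ifit3b, a near copy that can share its reads, had 100.4, 188 and 550.2 normalized counts in the PBS mice and 13.1, 26 and 25 in the rIL-13 mice (log2 fold change -3.69, SE 0.62, adjusted p = 0.00937), Ifit2 was at -2.39 (adjusted p = 0.0423) and Gbp3, an interferon-induced GTPase, at -1.45 (adjusted p = 0.0287). Ifit3 was not called without mouse 2, 3, 5 or 7 (adjusted p up to 0.0793), Ifit2 without mouse 2, 3, 5, 6 or 7 (adjusted p up to 0.155) and Gbp3 without mouse 2, 3, 5 or 7 (adjusted p up to 0.123). All 4 genes called were higher in the microglia than in the macrophages of the rIL-4 mice, by 2.22 to 3.69 on the log2 scale, and microglia markers were lower in the same rIL-13 libraries. Their part in these falls was not tested. Irf7 (-0.81, adjusted p = 0.552) and Isg15 (-1.31, adjusted p = 0.198) were not called. The interferon response element GAAANNGAAA, searched on both strands and chosen after the values were seen, was found in 6.98% of the promoters of genes called lower, 3.32% of those called higher and 4.0% of all tested. The promoters of Cxcl10 and Ifit3 held it and are printed as the 250 bases before the start, with the element in capitals, as its reverse complement where it lies on the other strand:
Cxcl10, chr5:92348890-92349139, minus strand: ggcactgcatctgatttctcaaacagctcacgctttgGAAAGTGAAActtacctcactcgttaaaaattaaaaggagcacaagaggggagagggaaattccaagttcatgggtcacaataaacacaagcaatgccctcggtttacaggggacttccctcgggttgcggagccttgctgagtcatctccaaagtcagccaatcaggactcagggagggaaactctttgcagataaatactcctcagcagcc
Ifit3, chr19:34583279-34583528, plus strand: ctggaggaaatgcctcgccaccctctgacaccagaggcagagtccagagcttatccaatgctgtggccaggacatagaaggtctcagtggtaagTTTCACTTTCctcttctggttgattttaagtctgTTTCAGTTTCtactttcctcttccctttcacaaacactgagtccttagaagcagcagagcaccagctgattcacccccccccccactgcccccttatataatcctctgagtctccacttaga
It began 213 bases before the start of Cxcl10 and 156 and 122 bases before that of Ifit3.

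Sensors and signalling genes of the Toll-like receptor pathway fell in part. Of 30 tested, 5 were called lower and 1 higher. Tlr2, a receptor for bacterial lipoproteins, had 17054, 15267 and 15124 normalized counts in the PBS mice and 6451, 7202 and 8507 in the rIL-13 mice (log2 fold change -1.09, SE 0.17, adjusted p = 0.00763). Tlr13, which senses bacterial ribosomal RNA, had 19371, 20892 and 19644 normalized counts in the PBS mice and 11947, 12351 and 13649 in the rIL-13 mice (log2 fold change -0.65, SE 0.12, adjusted p = 0.0154), and Tlr3, which senses double-stranded RNA, was at -1.14 (adjusted p = 0.029). Tlr8 went up, at 1.00 (adjusted p = 0.00227). The NF-kB regulators Nfkbiz and Tnfaip3, which are themselves induced by NF-kB, were at -2.18 (adjusted p = 0.045) and -1.18 (adjusted p = 0.0121), while Rela, a subunit of NF-kB, was not called (-0.24, adjusted p = 0.5). Tlr13 was not called without mouse 2, 3 or 5 (adjusted p up to 0.0732), Tlr3 with any 1 mouse left out (adjusted p up to 0.107), Nfkbiz without mouse 1, 2, 3, 5 or 7 (adjusted p up to 0.144) and Tnfaip3 without mouse 1 or 2 (adjusted p up to 0.0522). Ptgs2, the inducible cyclooxygenase COX-2, had 3631, 3546 and 2348 normalized counts in the PBS mice and 188, 1372 and 652 in the rIL-13 mice and was not called (log2 fold change -2.11, SE 0.63, adjusted p = 0.101), and without rIL-13 mouse 6 its log2 fold change was -2.90 (adjusted p = 0.0311).

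An Fc receptor was called higher and a gene of the oxidative burst lower. Fcgr2b, the inhibitory Fc gamma receptor (CD32), had 17918, 20616 and 20399 normalized counts in the PBS mice and 50688, 73007 and 55800.1 in the rIL-13 mice (log2 fold change 1.61, SE 0.21, adjusted p = 0.00318). Fcgr3, the activating receptor CD16, had 21704, 24902 and 26205 normalized counts in the PBS mice and 37048, 51645 and 33739 in the rIL-13 mice and was not called (log2 fold change 0.76, SE 0.23, adjusted p = 0.111). Its groups did not overlap, as for 24.5% of all genes tested. Fcgr1 (-0.64, adjusted p = 0.295) and Fcgr4 (0.16, adjusted p = 0.79) were not called. Cybb, the catalytic subunit of the phagocyte NADPH oxidase, had 10705, 9938 and 11800.4 normalized counts in the PBS mice and 4092, 4758 and 4329.8 in the rIL-13 mice (log2 fold change -1.29, SE 0.19, adjusted p = 0.00496) and was the only 1 of 8 oxidase genes to be called. Of these 8, 3 were above 0 and 5 below, with a median of -0.11. Slamf7, a receptor found on inflammatory macrophages, was at -2.21 (adjusted p = 0.0415). Slamf7 was not called without mouse 1, 2, 3, 5 or 7 (adjusted p up to 0.127). Cd86 (-0.38, adjusted p = 0.387) and Cd80 (-0.29, adjusted p = 0.842), both costimulatory molecules, were not called.

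**Figure D4:**
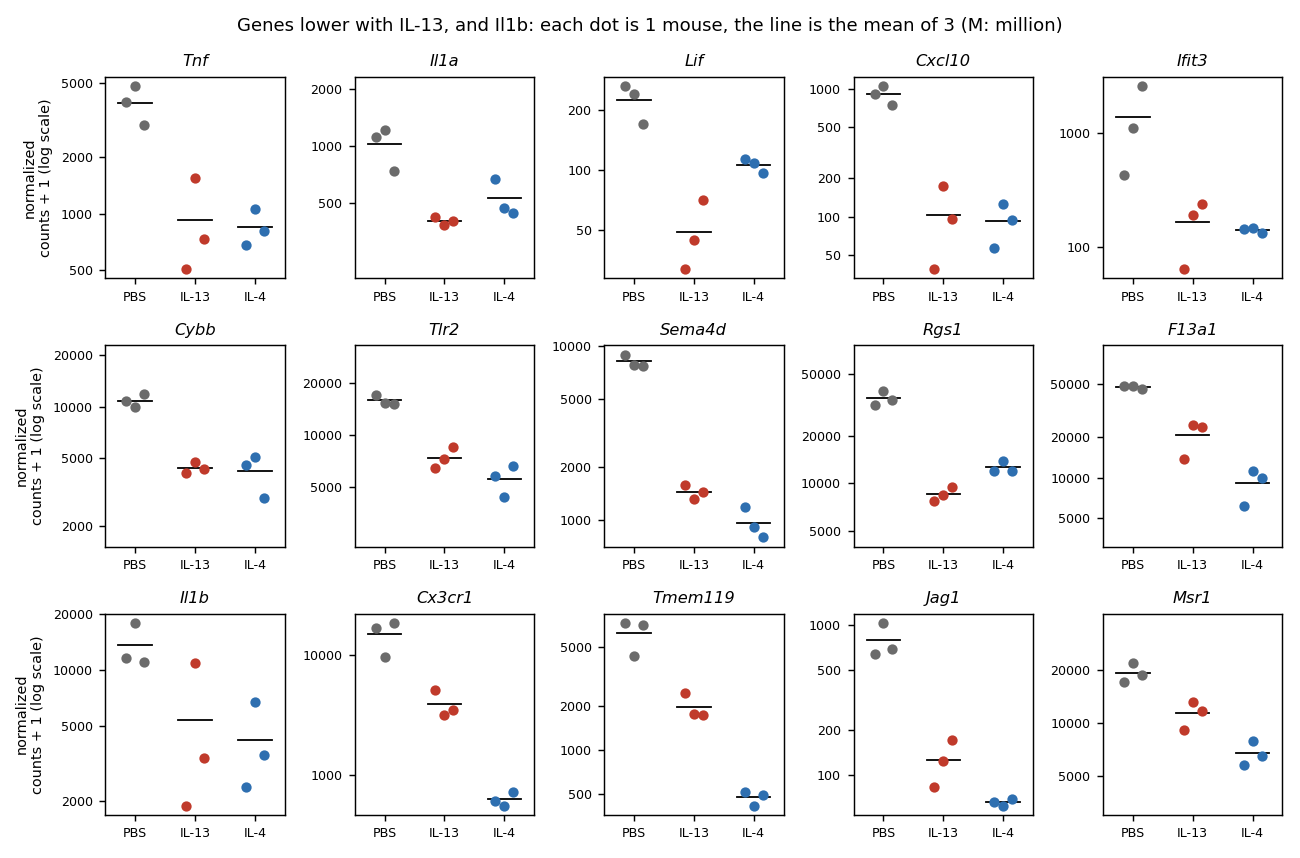
Normalized counts plus 1 (log scale, a scale of its own in each panel) of 14 genes called lower with rIL-13 and of Il1b, 1 dot per mouse and a line at the mean of the 3 mice, in PBS, rIL-13 and rIL-4 macrophages. The groups do not overlap for the 14 genes called, and for Il1b rIL-13 mouse 6 lies just below the lowest PBS value. In the panels of Cx3cr1 and Tmem119 the rIL-4 mice lie below the rIL-13 mice.

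The falling genes with the smallest p-values were mostly outside the inflammatory lists. Sema4d (ENSMUSG00000021451.15, chromosome 13 from 51685529 to 51793747), a semaphorin that binds plexin B1 and inhibits axon growth and oligodendrocytes, had 8975, 7854 and 7727 normalized counts in the PBS mice and 1593, 1307 and 1445 in the rIL-13 mice (log2 fold change -2.49, SE 0.18, adjusted p = 5.19e-05). Rgs1 (ENSMUSG00000026358.13, chromosome 1 from 144242296 to 144249242), which dampens signals of chemokine receptors, had 31658, 38841 and 33896 normalized counts in the PBS mice and 7719, 8471 and 9432 in the rIL-13 mice (log2 fold change -2.02, SE 0.14, adjusted p = 5.19e-05). Jag1, a Notch ligand, had 642, 1037 and 696 normalized counts in the PBS mice and 81.9, 124 and 169 in the rIL-13 mice (log2 fold change -2.66, SE 0.29, adjusted p = 0.00115), and Igf2bp2, which binds mRNA, had 640.3, 884 and 594 normalized counts in the PBS mice and 106, 158 and 103 in the rIL-13 mice (log2 fold change -2.52, SE 0.29, adjusted p = 0.00156). In each of these all 3 rIL-13 mice lay far below the PBS mice. Cd24a was at -1.32 (adjusted p = 0.0016), Atf3 at -1.12 (adjusted p = 0.00142) and Gal3st4, a sulfotransferase, at -1.87 (adjusted p = 0.00158). Cd5l, which encodes the secreted protein AIM of tissue macrophages, had 1213, 945 and 1505 normalized counts in the PBS mice and 305, 160.0 and 221 in the rIL-13 mice (log2 fold change -2.41, SE 0.28, adjusted p = 0.00156).

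By size, the deepest falls with at least 100 normalized counts were those of Cdo1 (-4.47), Ifit3b (-3.69), Fcrl1 (-3.53) and Npy (-3.41). Fcrl1, an Fc receptor-like gene known from B cells, had 363, 367 and 305 normalized counts in the PBS mice and 36.8, 32.2 and 20 in the rIL-13 mice (log2 fold change -3.53, SE 0.48, adjusted p = 0.00331), while the sum of 23 lymphocyte markers in CPM was between 183 and 205 with PBS and between 80.8 and 116 with rIL-13. Npy, which encodes neuropeptide Y, had 458, 755 and 593 normalized counts in the PBS mice and 108, 16.6 and 45 in the rIL-13 mice (log2 fold change -3.41, SE 0.54, adjusted p = 0.00735), while 8 neuron markers summed to at most 1.09 CPM in each of the 6 libraries. Hpgd, which inactivates prostaglandins, had 1057, 524 and 1006 normalized counts in the PBS mice and 210.2, 129.9 and 90 in the rIL-13 mice (log2 fold change -2.58, SE 0.35, adjusted p = 0.00332). Zranb3 was at -2.76 (adjusted p = 0.0159). Cdo1 was not called without mouse 1, 3 or 7 (adjusted p up to 0.0626) and Zranb3 without mouse 1, 3 or 7 (adjusted p up to 0.0591).

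Microglia markers were at lower levels in rIL-13 macrophages. All 18 tested had a negative log2 fold change, 6 were called, and the median was -1.40. Cx3cr1, the fractalkine receptor, had 16667, 9508 and 18554 normalized counts in the PBS mice and 5062, 3148 and 3481 in the rIL-13 mice (log2 fold change -1.93, SE 0.27, adjusted p = 0.00369). Tmem119 had 7349, 4326 and 7094 normalized counts in the PBS mice and 2430.5, 1749 and 1734 in the rIL-13 mice (log2 fold change -1.66, SE 0.22, adjusted p = 0.00333). The others called were Fcrls (-1.72), Sparc (-1.53), Slc2a5 (-2.89) and Mef2c (-0.92), while P2ry12 (-0.63, adjusted p = 0.309) was not called. Fcrls was not called without mouse 1, 3 or 7 (adjusted p up to 0.0659), Slc2a5 without mouse 1, 3, 6 or 7 (adjusted p up to 0.116) and Mef2c with any 1 mouse left out (adjusted p up to 0.114). PBS mouse 2 held the lowest sum of these markers among the PBS mice, at 3319 CPM. The gate on CD45 is meant to remove microglia, and the study states a high purity after the sort. Microglia among the sorted cells and expression of these genes by macrophages cannot be told apart in these libraries.

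A comparison that used none of the 6 libraries shows which genes called here also differed between sorted microglia and sorted macrophages. Sorted microglia libraries held RNA of other cells too. Fibroblast and pericyte markers summed to 3136 to 4737 CPM in PBS microglia, against 12.2 to 15.4 in PBS macrophages. For endothelial markers these sums were 1407 to 2936 and 43.8 to 63.6 CPM. The part of such RNA in the genes higher in microglia was not tested. Between the microglia and macrophages of the 3 rIL-4 mice, 10.5% of the genes tested in both fits were called higher in microglia and 10.4% higher in macrophages. Of 220 genes called lower with rIL-13, 70 (31.8%) were higher in those microglia, 34 (15.5%) were higher in those macrophages and 116 (52.7%) were called in neither direction. Of 342 genes called higher with rIL-13, 15 (4.39%) were higher in microglia and 125 (36.5%) in macrophages. Tnf, Clec4n, Rgs1, Cybb, Tlr2, F13a1, Atf3 and Slamf7 were among the 34 falling genes that were higher in macrophages, and Cx3cr1, Tmem119, Hpgd, Cd5l, Gas6, Lpl, Gbp3 and the 3 Ifit genes among the 70 that were higher in microglia. Sema4d, Jag1, Cxcl10, Lif, Il1a and Plau were called in neither direction. Both cell types of these mice had been exposed to rIL-4. A block for the mouse, which was added after seeing the data, gave 63 of the 220 genes higher in microglia, 33 higher in macrophages and 124 in neither direction. Of these, 62 and 31 were shared with the fit without the block. Of the 342 genes that rose, the block gave 14 higher in microglia and 138 in macrophages. Over all genes tested in both it gave 8.98% and 9.77%. The part that microglia among the sorted cells took in the falling values was not tested.

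Genes for the uptake of dead cells and lipids were called in both directions, against 2.53% called higher and 1.66% lower over all genes. Of 18 efferocytosis genes, 1 rose and 2 fell by edgeR, while DESeq2 called 1 higher and 5 lower. Itgb3 was at 1.50 (adjusted p = 0.029), Gas6, which bridges dying cells to TAM receptors, had 6301, 5111 and 5447 normalized counts in the PBS mice and 3008, 2642 and 2359 in the rIL-13 mice (log2 fold change -1.07, SE 0.19, adjusted p = 0.0133), and Elmo1 was at -0.76 (adjusted p = 0.0247). Itgb3 was not called without mouse 2, 3, 5, 6 or 7 (adjusted p up to 0.0988), Gas6 without mouse 1, 3 or 7 (adjusted p up to 0.0608) and Elmo1 without mouse 1, 3, 5, 6 or 7 (adjusted p up to 0.0741). The receptors Axl (-1.10, adjusted p = 0.182) and Mertk (-0.19, adjusted p = 0.807) were not called. Of 23 genes of lipid efflux, uptake and storage, 2 were called, both lower, Apoc2 (-1.58, adjusted p = 0.0316) and Lpl, the lipoprotein lipase, which had 3449, 3377 and 4042 normalized counts in the PBS mice and 1940.1, 1276 and 1339 in the rIL-13 mice (log2 fold change -1.25, SE 0.21, adjusted p = 0.0101). Apoc2 was not called without mouse 1, 2, 3, 6 or 7 (adjusted p up to 0.111) and Lpl without mouse 3 or 7 (adjusted p up to 0.0503). Apoe had 655380.1, 536005 and 622221 normalized counts in the PBS mice and 433733, 128385 and 257189 in the rIL-13 mice and Gpnmb 216745, 174218 and 214382 normalized counts in the PBS mice and 107433, 11243 and 57597 in the rIL-13 mice. Both were lowest in rIL-13 mouse 6 and were not called, at -1.14 (adjusted p = 0.219) and -1.77 (adjusted p = 0.205) on the log2 scale with all mice, and -0.79 (adjusted p = 0.359) and -1.27 (adjusted p = 0.23) without mouse 6. Of 22 genes known from damage-associated microglia 2 rose and 1 fell, and Spp1 (-0.98, adjusted p = 0.156) and Trem2 (-0.52, adjusted p = 0.229) were not called. Of 17 complement genes, C3, the central component, was called, with 2109.6, 2497 and 2091 normalized counts in the PBS mice and 6016, 10023 and 8558 in the rIL-13 mice (log2 fold change 1.88, SE 0.19, adjusted p = 0.000764), and C1qa (-0.46, adjusted p = 0.249) was not.

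Iron handling moved in both directions. Tfrc, the transferrin receptor that brings iron in, had 1105, 735 and 648 normalized counts in the PBS mice and 9689, 1649 and 4819.6 in the rIL-13 mice (log2 fold change 2.71, SE 0.56, adjusted p = 0.0256). rIL-13 mouse 6 was the lowest of the rIL-13 mice, and without it the log2 fold change was 3.15 (adjusted p = 0.00238). Hfe, which restrains this uptake, had 2166, 2186 and 2482 normalized counts in the PBS mice and 7503, 6642 and 6915 in the rIL-13 mice with tight groups (log2 fold change 1.63, SE 0.12, adjusted p = 6.35e-05). Slc40a1, which encodes ferroportin, the exporter of iron, had 1103, 878 and 800.3 normalized counts in the PBS mice and 363, 487 and 274 in the rIL-13 mice (log2 fold change -1.30, SE 0.26, adjusted p = 0.0228), and Slc11a1, the iron transporter of the phagosome, was at -0.66 (adjusted p = 0.0265). Tfrc was not called without mouse 1, 2, 3, 5 or 7 (adjusted p up to 0.116), Slc40a1 without mouse 1, 2, 3, 5 or 7 (adjusted p up to 0.0872) and Slc11a1 with any 1 mouse left out (adjusted p up to 0.106). With Cd163, 3 of the 19 genes rose and 2 fell, against 2.53% called higher and 1.66% lower over all genes. Hmox1, which breaks down heme, had 98024, 123224 and 111834 normalized counts in the PBS mice and 68029, 64094 and 83763 in the rIL-13 mice and was not called (log2 fold change -0.62, SE 0.19, adjusted p = 0.115). Its groups did not overlap, as for 24.5% of all genes tested.

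Eicosanoid genes were split 3 to 3 among 20 tested, against 2.53% called higher and 1.66% lower over all genes. Ptger2, a receptor for prostaglandin E2, had 1329.8, 1463 and 1586 normalized counts in the PBS mice and 2403, 2473 and 2793 in the rIL-13 mice (log2 fold change 0.82, SE 0.12, adjusted p = 0.00601), and Ptger4, another receptor for it, had 1117, 811 and 668 normalized counts in the PBS mice and 304, 297 and 254 in the rIL-13 mice (log2 fold change -1.60, SE 0.24, adjusted p = 0.00605), so that the receptors moved in opposite directions. Its exons overlap those of Ttc33 on the other strand, which an unstranded library cannot separate. Ptgir, the prostacyclin receptor, was at 1.43 (adjusted p = 0.0151) and Tbxas1, the thromboxane synthase, at 0.80 (adjusted p = 0.0108). Hpgds, the prostaglandin D synthase, fell at -1.54 (adjusted p = 0.022), as did Pla2g7 at -1.14 (adjusted p = 0.0468). Ptgir was not called without mouse 2 or 3 (adjusted p up to 0.0793), Tbxas1 without mouse 2, 3 or 7 (adjusted p up to 0.063), Hpgds without mouse 1, 3, 6 or 7 (adjusted p up to 0.0793) and Pla2g7 without mouse 1, 2, 3, 5 or 7 (adjusted p up to 0.161). Alox5 (-0.91, adjusted p = 0.145) was not called.

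Genes of the respiratory chain and the TCA cycle lay above 0. Over all genes tested, 6858 of 13606 had a log2 fold change above 0. All 75 nuclear-encoded genes of the respiratory chain were above 0, with a median of 0.38, but 3 were called, Sdhd (0.58, adjusted p = 0.0451), Uqcrc1 (0.58, adjusted p = 0.0374) and Atp5g3 (0.64, adjusted p = 0.0464). All 34 genes of the TCA cycle and fatty acid oxidation were above 0 too, with a median of 0.30 and 3 calls, Idh2 (0.52, adjusted p = 0.031), Etfa (0.54, adjusted p = 0.0468) and Sdhd. Uqcrc1 was not called with any 1 mouse left out (adjusted p up to 0.165), Atp5g3 without mouse 1, 2, 3, 5 or 7 (adjusted p up to 0.16), Idh2 without mouse 1, 2, 3, 5 or 7 (adjusted p up to 0.137), Etfa without mouse 1, 2, 3, 5 or 7 (adjusted p up to 0.199) and Sdhd without mouse 1, 2, 3, 5 or 7 (adjusted p up to 0.179). Of 81 cytosolic ribosomal proteins 0 were called by edgeR or by DESeq2, with a median of 0.34, which was 0.13 without rIL-13 mouse 6, and of 13 mitochondrially encoded genes 0 were called by edgeR or by DESeq2. At an unadjusted p under 0.05 the respiratory chain list had 28 higher and 0 lower, the list of the TCA cycle and fatty acid oxidation 15 higher and 0 lower, the ribosomal list 6 higher and 0 lower, and the mitochondrial list 0 higher and 0 lower. Of the 13606 genes tested, 2433 had an unadjusted p under 0.05 in either direction. In glycolysis, Ldha, which turns pyruvate into lactate, had 39024, 48981 and 47146 normalized counts in the PBS mice and 68527, 70279.8 and 77268 in the rIL-13 mice (log2 fold change 0.68, SE 0.15, adjusted p = 0.0299). The enzymes that set fructose-2,6-bisphosphate moved apart, Pfkfb4 to 1.07 (adjusted p = 0.0209) and Pfkfb3 to -0.69 (adjusted p = 0.0147). Ldha was not called without mouse 1, 2, 3, 5 or 7 (adjusted p up to 0.135), Pfkfb4 without mouse 1, 2, 3 or 7 (adjusted p up to 0.102) and Pfkfb3 without mouse 1, 2, 3 or 5 (adjusted p up to 0.0678). Mvd, an enzyme of sterol synthesis, rose, with 436, 392 and 469 normalized counts in the PBS mice and 931, 1126 and 1056 in the rIL-13 mice (log2 fold change 1.27, SE 0.16, adjusted p = 0.00227).

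Genes of antigen presentation and cell division were examined next. Of 12 genes of MHC class II presentation, Ifi30, the lysosomal thiol reductase, was called (0.86, adjusted p = 0.0224), while Cd74 (0.08, adjusted p = 0.911) and H2-Aa (-0.11, adjusted p = 0.875) were not. Ifi30 was not called without mouse 1, 3, 5 or 7 (adjusted p up to 0.0874). Of 17 genes of MHC class I presentation and of 36 genes of DNA replication and mitosis 0 were called by edgeR, and DESeq2 called 1 gene of each list, both lower. At an unadjusted p under 0.05 edgeR gave 1 higher and 5 lower on the first list and 0 higher and 1 lower on the second, against 2433 of all 13606 genes tested. Mki67 (-0.03, adjusted p = 0.984) and Top2a (-0.46, adjusted p = 0.514), both markers of dividing cells, were not called. Among chemokine receptors 3 of 17 were called, all lower, Cx3cr1, Cxcr3 and Ccrl2. Ccrl2 had 8793, 9289 and 8385 normalized counts in the PBS mice and 1679, 3624 and 3007 in the rIL-13 mice (log2 fold change -1.67, SE 0.24, adjusted p = 0.00447). Cxcr3 was low, with 83.3, 51.7 and 108 normalized counts in the PBS mice and 20.2, 26 and 14 in the rIL-13 mice. Cxcr3 was not called with any 1 mouse left out (adjusted p up to 0.184). Ccr2, the receptor of infiltrating monocytes, had 6401, 8819.6 and 6909 normalized counts in the PBS mice and 5499.7, 19622 and 11110.4 in the rIL-13 mice and was not called (log2 fold change 0.71, SE 0.38, adjusted p = 0.379).

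**Figure D5:**
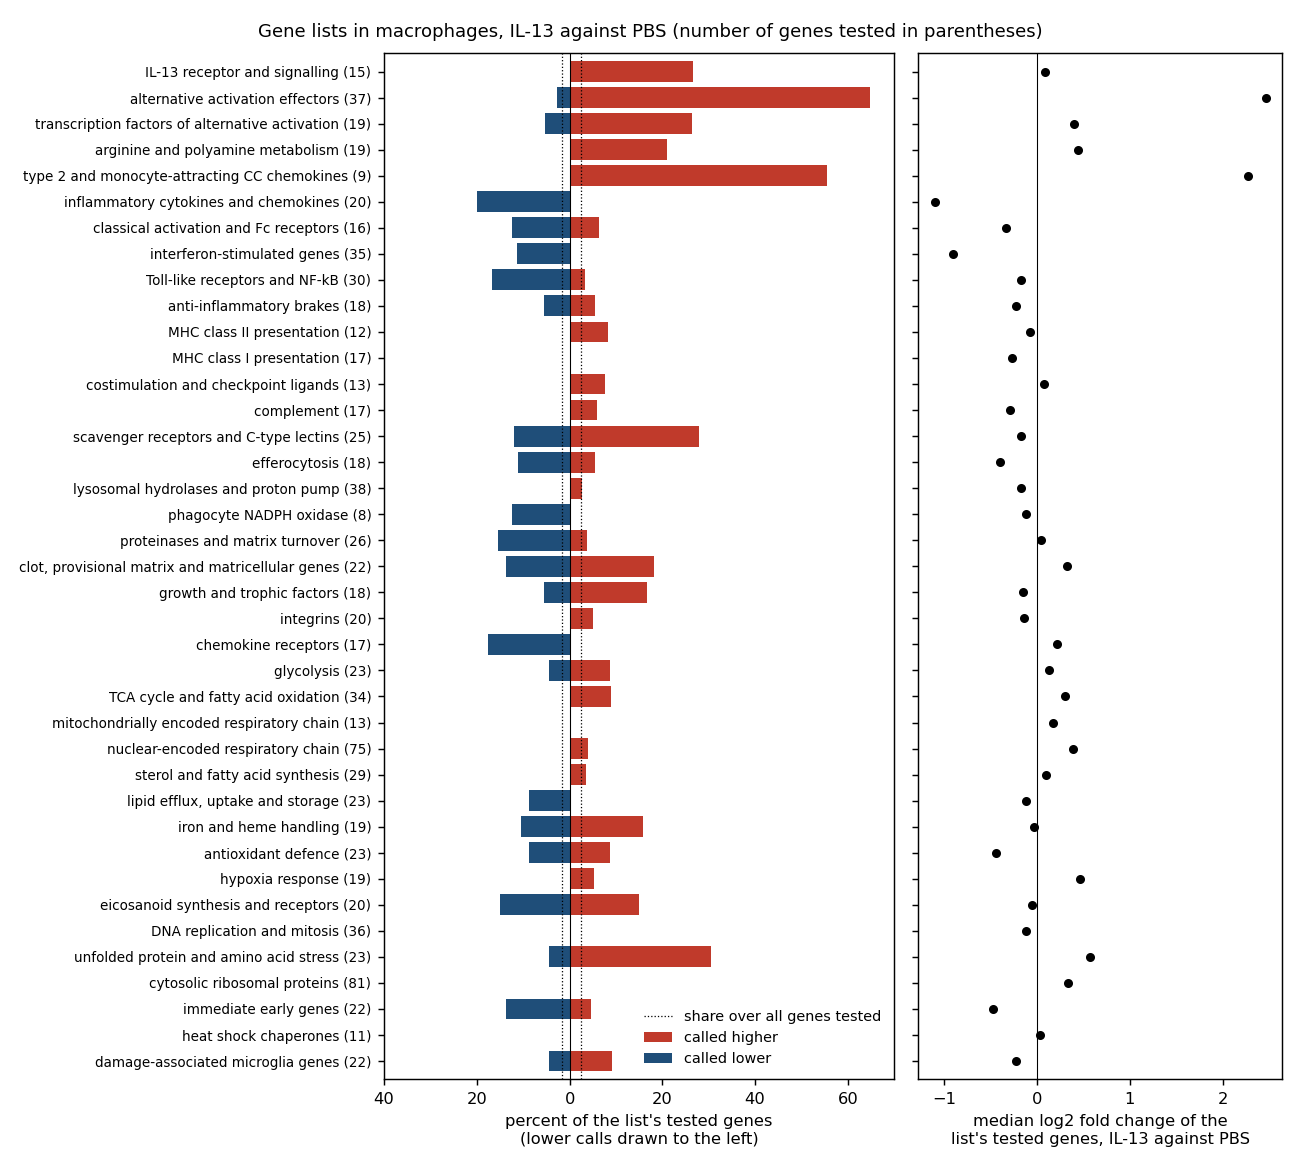
Left, the percent of the tested genes of each of 39 lists of functions that were called higher (to the right) or lower (to the left), with dotted lines at 2.53% and 1.66%, the shares over all genes tested. Right, the median log2 fold change of each list. Effectors of alternative activation (24 of 37) and CC chemokines (5 of 9) stand furthest to the right, and inflammatory cytokines (4 of 20) furthest to the left.

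The rIL-4 macrophages, which share no mice with the rIL-13 group, were compared with it directly. Of 13606 genes, 34 (0.25%) were called, 30 higher and 4 lower with rIL-13, and 1513 had an unadjusted p under 0.05. The number was 4 without rIL-13 mouse 5, 22 without mouse 6, 23 without mouse 7, and 1, 3 and 5 without rIL-4 mouse 8, 9 and 10. With all mice it was 7 when the fit held the 6 libraries compared, 70 with all 18 libraries, 209 without a filter on low counts and 399 with DESeq2. Many of them fell with rIL-13 and were lower still with rIL-4. Cx3cr1 had 601, 548 and 711 normalized counts in rIL-4 mice 8, 9 and 10, and the log2 difference of rIL-13 minus rIL-4 was 2.65 ± 0.27 (SE, adjusted p = 0.0122). For Tmem119 these values were 516, 415 and 489 and 2.05 ± 0.23 (SE, adjusted p = 0.0158), for Pmp22 426, 376 and 379 and 2.01 ± 0.17 (SE, adjusted p = 0.00387) and for Cd5l 42.2, 42.8 and 62.5 and 2.21 ± 0.29 (SE, adjusted p = 0.0201). Each of these lay below the 3 rIL-13 mice in all 3 rIL-4 mice. In all, 16 of the 30 genes had been called lower with rIL-13 than with PBS, and 5 of the 30 are on the list of microglia markers, which summed to 799.5 to 1292 CPM with rIL-4.

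Of the 344 genes that rose with rIL-13, 1 was called between the cytokines by edgeR with the 9 macrophage libraries. This was Rnase2a, which had 7263, 6939.6 and 8031 normalized counts in the rIL-4 mice, with a log2 difference of -2.16 ± 0.29 (SE, adjusted p = 0.0201). Mrc1 (-0.28, SE 0.22, adjusted p = 0.688), Chil3 (-0.60, SE 0.32, adjusted p = 0.535) and Ccl24 (-0.61, SE 0.53, adjusted p = 0.742) were not called. Slc7a2 had 24059.7, 40414 and 27399 normalized counts with rIL-4, above the 3 rIL-13 mice, with a difference of -1.02 ± 0.20 (SE, adjusted p = 0.0776), and Retnla had 18352, 44637 and 28936, with a difference of -2.06 ± 0.36 (SE, adjusted p = 0.0514). Cebpb, which encodes the factor C/EBP beta, was another of the 4 genes lower with rIL-13, at -2.95 ± 0.47 (SE, adjusted p = 0.0415). Postn, which rose with rIL-13, had 400.5, 500.1 and 259 normalized counts with rIL-4 and a difference of 1.83 ± 0.32 (SE, adjusted p = 0.0528).

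The response of macrophages was also tested against that of microglia of the same PBS and rIL-13 mice. Of 16535 genes, 4 (0.0242%) were called by this interaction, and 964 had an unadjusted p under 0.05. The number was 3 with the mouse as a block, where Serpina3g and Zfp174 were not called (adjusted p = 0.0858 and 0.137) and Gja1 was (adjusted p = 0.0223). With all mice 3 of the 4 were higher and 1 lower. The number was 1 without PBS mouse 1. It was 4 without rIL-13 mouse 6 (1 higher and 3 lower) or 7 (4 higher and 0 lower), which cannot be the same 4 genes. It was 0 when mouse 2, 3 or 5 was left out. Pdia4 rose in macrophages from 382, 350.4 and 381 CPM to 1144, 1154 and 1480.2 CPM, and in microglia it was 275, 367 and 291 CPM with PBS and 367, 419 and 448 with rIL-13. The difference of the log2 fold changes was 1.51 ± 0.24 (SE, adjusted p = 0.0402). Pecam1 rose in macrophages from 9.57, 6.78 and 7.44 CPM to 81, 154 and 121 CPM, and was 368, 322 and 153 and 402, 528 and 690.3 CPM in microglia (3.12, SE 0.48, adjusted p = 0.0402). In the microglia libraries Cldn5 was between 329.6 and 822 CPM with PBS and between 657 and 1371 CPM with rIL-13, and the endothelial sum was 1407 to 2936 CPM with PBS and 2795 to 5133 CPM with rIL-13. The part of endothelial RNA in the interaction of Pecam1 was not tested.

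The other two genes called by the interaction were not called in macrophages. Zfp174, a zinc finger gene, was 1.54, 1.51 and 1.15 CPM and 1.31, 1.13 and 0.983 CPM in macrophages, and in microglia 2.37, 1.37 and 2.4 CPM with PBS and 0 in all 3 libraries with rIL-13. Serpina3g, a serine proteinase inhibitor, was at most 0.553 CPM in macrophages, and rose in microglia from 3.88, 2.79 and 1.19 CPM to 161, 140.3 and 353. Chil3, Retnla and Gatm were called higher in both cell types. The log2 fold change of Chil3 was 4.54 in macrophages and 5.41 in microglia, that of Retnla 12.64 in macrophages and 10.13 in microglia and that of Gatm 3.17 in macrophages and 2.94 in microglia, with adjusted p of 0.00778, 0.00173 and 0.000357 in microglia. The difference between the cell types was called for none of these 3, at -0.88 ± 0.64 (SE, adjusted p = 1), 2.54 ± 1.68 (SE, adjusted p = 1) and 0.23 ± 0.21 (SE, adjusted p = 1). For Slc7a2 the values were 4.78 in macrophages and 1.92 in microglia and the difference 2.87 ± 0.56 (SE, adjusted p = 0.128). Tnf fell in both, at -2.07 in macrophages and -2.98 in microglia (adjusted p = 0.0156 in microglia), and Clec4n was at -2.47 in macrophages and -1.86 in microglia, where it was not called (adjusted p = 0.141). Of the 570 genes called in macrophages, 557 were tested in microglia and 40 were called there, where 57 of 15566 genes were called in all.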

How the data were processed

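Macrophages and microglia were sorted from the injured cord of 9 mice and their RNA was amplified by SMART-seq2, which reads whole transcripts without strand or molecular identifiers. The authors aligned the reads with STAR 2.5.3a to GRCm38 and deposited the expected counts per gene from RSEM 1.3.0, here whole numbers. All 18 columns were mapped to samples by name. Reads of near-identical genes may have been split between them by RSEM.

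Gene-wise tests used edgeR 4.0.16 in R 4.3.3 (quasi-likelihood, TMM, genes kept by filterByExpr) on the 9 macrophage libraries with 3 groups, and for the response against microglia on all 18 libraries with 6 groups. p-values were adjusted over all genes tested by the Benjamini-Hochberg method, with a threshold of 0.05. Each replicate is a mouse, so that the p-values measure the spread between mice. Standard errors were taken as the size of the log2 fold change divided by the square root of F. Alternatives were DESeq2 1.42.0, its size factors in edgeR, other filters (none, or at least 10 counts in every library), other sets of libraries, and each mouse left out. The same number marks the same mouse in both cell types, so that the libraries are paired by design. The correlation of their deviations from the group means was between 0.0177 and 0.0935.

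The comparison and the lists of genes were chosen with earlier results of these data known. Named genes are the called genes of these lists with up to 3 uncalled members each, the 15 largest changes in each direction with at least 100 normalized counts on average, the 10 smallest p-values in each direction, the markers the study measured as proteins, and, for the other contrasts, the 10 smallest p-values. A few genes beyond these were named after their values were seen, and a few items are not reported here. Positions are those of GENCODE genes of GRCm38, matched on the identifier without its version, and promoters are those of RefSeq (GRCm38.p6), matched by symbol. Ratios of summed counts carry exact 95% intervals, which cover counting error only, since reads are not independent molecules.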

Additional observations from a re-analysis of the deposited data

Results flagged for a closer look

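The response to rIL-13 differed between macrophages and microglia for 4 genes by edgeR's test of the interaction. In groups of 3 mice no single library was tested as standing apart. The log2 fold change in macrophages minus that in microglia was 3.12 for Pecam1 (adjusted p = 0.0402) and 1.51 for Pdia4 (adjusted p = 0.0402), which were called in macrophages and not in microglia. It was 9.02 for Zfp174 (adjusted p = 0.0187) and -5.53 for Serpina3g (adjusted p = 0.0402), which were not called in macrophages. Zfp174 had no count in the 3 rIL-13 microglia libraries, so that its fitted value depends on the prior count and is no bound. With the mouse as a replicate block 3 genes were called, Pecam1, Pdia4 and Gja1, the last with a log2 difference of 4.32, while Serpina3g and Zfp174 lost the call (adjusted p = 0.0858 and 0.137). No gene was called when mouse 2, 3 or 5 was left out.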

How the results depend on the processing

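For rIL-13 against PBS, 570 genes were called (344 higher, 226 lower). The number was 1112 with DESeq2 (559 and 553), 760 without a filter (411 and 349) and 257 with all 18 libraries in the fit (164 and 93), and between 199 and 529 with 1 mouse left out (117 to 303 higher, 82 to 226 lower). The other alternatives gave counts within 1.5 times the main count.

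For rIL-13 against rIL-4, 34 genes were called (30 and 4). The number was 399 with DESeq2 (248 and 151), 209 without a filter (151 and 58), 70 with all 18 libraries (66 and 4), 23 with the stricter filter on low counts (21 and 2), 7 with the 6 libraries compared (7 and 0) and 1 to 23 with 1 mouse left out (1 to 23 higher, 0 to 1 lower).

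For the response against microglia, 4 genes were called (3 and 1). The number was 183 with DESeq2 (98 and 85), 2 with the stricter filter (2 and 0), 5 without a filter (3 and 2), 3 with the 12 libraries of PBS and rIL-13 mice (2 and 1), 3 with the mouse as a replicate block (3 and 0) and 0 to 4 with 1 mouse left out (0 to 4 higher, 0 to 3 lower). In the comparison of microglia with macrophages of the rIL-4 mice, which share mice, the block, added after seeing the data, gave 1162 genes higher in microglia in place of 1354, and 1264 higher in macrophages in place of 1352. The macrophage comparisons have no block, since their groups came from different mice.

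Of the genes named, other than Siglecf, 53 lost the call with all 18 libraries, 14 with the 6 libraries compared and none with DESeq2. With 1 mouse left out, the log2 fold change of 16 genes changed sign, and none of them was called with all mice. They were Ccl2 (-1.25 to 0.20), Ccl7 (-0.63 to 0.62), Cd74 (-0.0808 to 0.38), Cd80 (-1.06 to 0.0739), Ddit3 (-0.26 to 0.0513), Fcgr4 (-0.0703 to 0.35), H2-Aa (-0.28 to 0.0493), Il4ra (-0.0105 to 1.07), Jak1 (-0.12 to 0.0484), Mertk (-0.42 to 0.11), Mki67 (-0.42 to 0.52), Mmp9 (-1.15 to 0.21), Odc1 (-0.18 to 0.19), Socs3 (-0.77 to 0.12), Stat6 (-0.0704 to 0.17) and Tgfb1 (-0.0579 to 0.47). The cause was not tested. With 3 mice a group, 2433 genes had an unadjusted p under 0.05 and 570 passed the adjustment.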

Other observations

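Further genes were called higher in every fit with 1 mouse left out. Il31ra, the receptor chain for IL-31, which is on the list of alternative activation effectors, had 1, 0 and 4.98 normalized counts in the PBS mice and 67.7, 350.2 and 144 in the rIL-13 mice (log2 fold change 6.44, SE 1.05, adjusted p = 0.00817). Clcn5, a chloride channel of endosomes that is on no list, had 731, 639 and 645 normalized counts in the PBS mice and 2217, 2728 and 2386 in the rIL-13 mice (log2 fold change 1.87, SE 0.13, adjusted p = 5.19e-05). Sprr2a2, a protein of the cornified envelope of epithelium, had 0 counts with PBS and 265 with rIL-13 over the 3 mice, and its reads can be shared with the near-identical Sprr2a1. These genes were picked after their values were seen. Among genes called lower in every such fit was Gm8818, a predicted gene, with 290.0, 230.4 and 162 normalized counts in the PBS mice and 16.6, 38.4 and 35 in the rIL-13 mice (log2 fold change -2.91, SE 0.37, adjusted p = 0.00239). With all 18 libraries in the fit Il31ra, Clcn5 and Gm8818 were not called (adjusted p = 0.129, 0.0889 and 0.365).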
